A study of Mus musculus with 48 samples.

Results

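Cycling Ku70-/- and WT vAbl cells were compared for what became of the Jκ1 signal end when no arrest was imposed. Of the 48 libraries of the series, the labels give 6 as cycling with the Jκ1 signal end bait, 3 from Ku70-/- cells and 3 from WT cells, and all 6 were used. vAbl cells are mouse progenitor B cells transformed by the Abelson kinase, which keeps them dividing. No inhibitor was added to these cultures, whereas other libraries of the series came from cells arrested in G0-G1 with the Abl kinase inhibitor STI-571 (3 μM, 96 h). Ku70-/- cells lack the Ku70 subunit of Ku. The study's methods name 1 WT clone and 1 Ku70-deficient clone, both from earlier work, so loss of Ku70 and other differences between 2 clonal lines cannot be told apart. The study's legends call its experiments biological repeats, and no label ties the 3 libraries of a genotype to separate cultures. The p-values measure the spread between these libraries. The lists hold DNA joints, so neither the loss of Ku70 nor the cell type could be checked in them. Libraries are numbered 1 to 3 within a genotype in the order of their records, as names that pair nothing.

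V(D)J recombination builds the variable region gene of an antigen receptor. The RAG endonuclease cuts next to a Vκ and a Jκ segment, at a heptamer that opens a recombination signal sequence, and leaves at each cut a blunt signal end and a coding end sealed as a hairpin. Ku binds broken ends and starts nonhomologous end joining (NHEJ), which joins coding end to coding end and signal end to signal end. Without Ku, alternative end joining (A-EJ) remains, a process known for trimmed ends and short overlaps at the joint. RAG activity is normally held to G0-G1, and cycling vAbl cells are known for only low levels of it. A Vκ segment in deletional orientation (DEL) leaves its signal joint on an excised circle, whereas the signal joint of an inversional segment (INV) stays in the chromosome.

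HTGTS-JoinT-seq amplifies from a primer near the Jκ1 break and reads into whatever was joined there, the prey. Each deposited line is 1 junction, with the prey position and strand on mouse build mm9. The bait reads rightward through the Jκ1 signal sequence to the break at the left edge of Jκ1, which is annotated at chr6:70672556-70672593. The sequences below are those on which the results turn, with the heptamer in capitals in each. The bait end lies at chr6:70672511-70672593, plus strand, and the signal sequence ends with its heptamer, where Jκ1 begins. The heptamer in the Jκ-Cκ intron, between Jκ5 and the Cκ exon, lies at chr6:70674988-70675047, plus strand. The heptamer downstream of the Cκ exon lies at chr6:70698807-70698866, minus strand. Such heptamers in the Jκ-Cκ intron and beyond Cκ are known from joints that remove Cκ. Each was placed here from the cycling WT libraries under comparison, at their most joined position in its stretch. High WT values at these heptamers were thus favoured by the choice. Igkv6-32, the Vκ site with the highest mean share of Vκ site junctions in either genotype, lies at chr6:70023990-70024029, minus strand, and is shown with its last coding bases before the heptamer.
Jκ1 bait end and Jκ1: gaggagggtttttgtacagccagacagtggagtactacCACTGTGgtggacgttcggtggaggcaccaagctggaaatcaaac
Jκ-Cκ intron heptamer: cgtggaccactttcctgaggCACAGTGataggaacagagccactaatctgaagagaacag
heptamer beyond Cκ: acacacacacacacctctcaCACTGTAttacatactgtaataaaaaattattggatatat
Igkv6-32: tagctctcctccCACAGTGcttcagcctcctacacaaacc

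The Ku70-/- libraries held 13726, 8294 and 10884 junctions and the WT libraries 24269, 25104 and 22602, each from 500000 read pairs. WT cells thus gave 2.19 times as many junctions as Ku70-/- cells, and the groups did not overlap. The order turned around when junctions that shared bait end, prey end and strand, and overlap or insertion length were counted once. There were then 1135, 748 and 1153 distinct junctions in Ku70-/- cells against 373, 375 and 373 in WT cells. Each distinct junction was present in 9.44 to 12.1 copies in Ku70-/- libraries and in 60.6 to 66.9 copies in WT libraries. Copies may be amplified molecules or separate joints of identical form, and these cannot be told apart in the lists. The lists do not count breaks either, so fewer cuts and fewer joins per cut cannot be told apart. Intervals and limits given here cover counting error only, since copies from PCR are not independent molecules.

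Vκ sites took most of the WT junctions, whereas no location class took the majority of those in any Ku70-/- library. Vκ sites are 140 positions, 64 DEL and 76 INV, where signal end junctions piled up in 9 arrested WT libraries. These had DMSO or a ligase inhibitor (L67 or L82-G17), and the 3 with DMSO serve again further on as the arrested WT group. A junction within 200 bp of a site was given to it. Vκ sites took 29.4, 24.0 and 37.0% of the junctions in the Ku70-/- libraries. They took 87.5, 82.5 and 85.7% in the WT libraries. Every Ku70-/- library lay below every WT library, and the means of 30.1% ± 6.55 and 85.2% ± 2.56 (SD, n = 3 each) differed 2.83-fold. With the 54 sites placed from arrested Ku70-/- libraries, 32 of them shared with the 140, the means were 10.6 and 32.0%, in the same order and without overlap. The Jκ region, within 2 kb of the break on either side, took 36.1, 37.8 and 38.9% in Ku70-/- cells against 3.17, 4.64 and 4.29% in WT cells, a 9.32-fold difference with no overlap. With each distinct junction counted once the Jκ region took 35.6% ± 4.26 against 19.0% ± 1.34 (SD, n = 3 each), still without overlap but 1.88-fold. The Jκ-Cκ intron and the sequence downstream to 100 kb took 25.1, 22.1 and 16.1% in Ku70-/- cells. In WT cells the same interval took 9.20, 12.7 and 9.91%, again below every Ku70-/- library.

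By copies, smaller classes of prey were also larger in each Ku70-/- library than in any WT library. Sequence between Vκ sites, within the Vκ region but over 200 bp from every site, held 7.45, 11.3 and 6.90% of Ku70-/- junctions. In WT cells it held 0.0865, 0.163 and 0%. The sites were placed from WT libraries. With the 54 sites placed from arrested Ku70-/- libraries the order turned round, to a mean of 28.1% against 53.4%. Junctions at the sites that this smaller set lacks count as between sites there. With the 140 sites at most 0.163% of a WT library lay between, so nearly all of the 53.4% lay at such sites. The interval between the last Vκ site and the Jκ region held 0.874, 3.48 and 0.707% against 0.00412, 0.0518 and 0.0664%. Counted once these groups overlapped, at 0.705, 1.60 and 0.781% against 0.268, 0.800 and 1.07%. The rest of chromosome 6 held 0.517, 0.277 and 0.0551% of Ku70-/- junctions and none of the WT junctions, where a count of 0 allows up to 0.0120 to 0.0133% of a library. The Ku70-/- mean of 0.283% fell to 0.166% without library 1. Other chromosomes held 0.619, 1.10 and 0.358% of Ku70-/- junctions against 0.0124, 0 and 0.00885% of WT junctions. Counted once they held 1.85, 4.55 and 0.694% against 0.536, 0 and 0.536%, where the lowest Ku70-/- value lay close to the highest WT value.

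**Figure D1:**
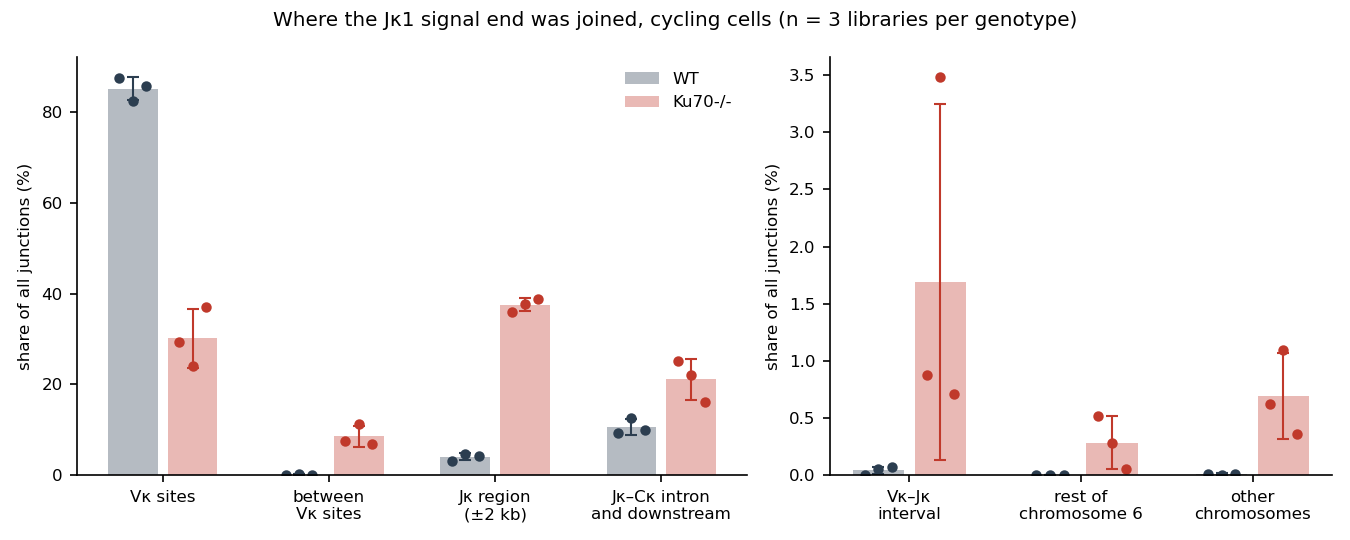
Share of all junctions of a library (percent) whose prey lay in each location class, the 4 large classes on the left and the 3 small ones on a wider scale on the right, with a point per library, bars at the mean and error bars at 1 SD (n = 3 per genotype). Ku70-/- points sit below WT points at Vκ sites (24.0 to 37.0% against 82.5 to 87.5%) and above them in every other class by copies.

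The library is the unit of the tests between genotypes, which were exact two-sided permutation tests over 3 libraries against 3. Their smallest possible p is 0.1, so no single share could pass 0.05, and a difference was called where the groups did not overlap. Of 17 library totals and shares tested, 16 were called, each with an exact p of 0.1 and an adjusted p of 0.106 (Benjamini-Hochberg over the 17). The exception was the share of the 5 leading Vκ sites, given with site usage. Junctions of each library came from 2 sequencing runs, the smaller with 9.42 to 10.0% of them. Within the larger run the groups stood apart in 16 of the 17, and within the smaller run in 14. In the smaller run the rest of chromosome 6 and the share of sites within 800 kb of Jκ1 also overlapped.

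Downstream of the break, by copies, Ku70-/- preys were spread, mainly over the first 100 bp and from 2001 to 5000 bp. Most WT preys lay at a single heptamer. By copies the median distance was shorter in Ku70-/- cells, and the medians had the opposite order when distinct junctions were counted. Between the break and 100 kb downstream lay 60.0, 58.8 and 52.9% of Ku70-/- junctions and 12.4, 17.3 and 14.2% of WT junctions. Most of these preys were on the plus strand, which reads on in the direction of the bait and leaves a deletion. The plus strand took 96.2, 97.1 and 95.2% of them in Ku70-/- cells and 86.3, 86.6 and 89.4% in WT cells. The median distance of plus strand preys from the break was 1205, 527 and 181 bp in Ku70-/- cells and 2452 bp in each WT library. Counted once it was 500, 38 and 814 bp in Ku70-/- cells and 12, 9.5 and 11 bp in WT cells. Within 10 bp then lay 12.3, 21.1 and 15.5% of the distinct plus strand preys in Ku70-/- cells and 45.9, 52.6 and 46.1% in WT cells. From 11 to 100 bp downstream lay 31.2, 26.9 and 33.2% of the plus strand preys in Ku70-/- cells, against 1.89, 0.905 and 1.74% in WT cells. Counted once these shares were 34.8, 32.9 and 29.3% against 23.0, 20.5 and 27.0%, a far smaller gap. From 2001 to 5000 bp, the stretch that holds the intronic heptamer, the order was the other way, with 39.6, 32.5 and 24.1% against 78.8, 81.2 and 75.0%. Counted once it turned round again, with 34.4, 30.1 and 32.1% against 17.6, 17.9 and 16.9%.

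**Figure D2:**
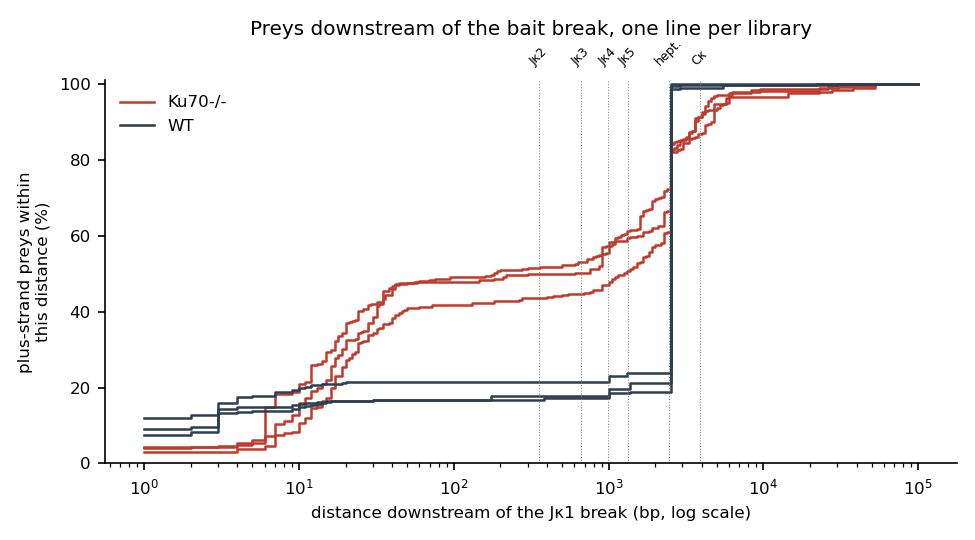
Cumulative percent of the plus strand preys downstream of the Jκ1 break (to 100 kb) against their distance from it in bp (log axis), one line per library, with dotted lines at Jκ2 to Jκ5, at the heptamer of the Jκ-Cκ intron (hept.) and at Cκ. WT lines make most of their rise in 1 step at the intronic heptamer, 2453 bp past the break, whereas Ku70-/- lines rise between 10 and 100 bp and again from 1000 bp on, with a smaller step at the same heptamer (7.55 to 19.3% of the preys within 20 bp of it, against 74.8 to 80.9% in WT libraries).

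Rejoined breaks, with the prey on the plus strand within 100 bp of the cut, made up 24.1, 27.3 and 24.7% of all junctions in Ku70-/- libraries. They made up 1.78, 2.49 and 2.74% in WT libraries. Counted once they were 22.6, 30.5 and 21.9% of distinct junctions against 13.7, 15.2 and 17.4%, still without overlap but closer together. Ku70-/- rejoins were spread over 51, 47 and 52 prey positions, WT rejoins over 20, 20 and 23. Both ends had lost bases in 86.9, 83.2 and 85.3% of the rejoins in Ku70-/- cells against 9.03, 7.05 and 14.2% in WT cells, and counted once in 81.2, 78.5 and 78.6% against 33.3, 36.8 and 43.1%. The median loss, both ends added, was 31, 27 and 29 bp in Ku70-/- cells and 2, 2 and 0 bp in WT cells, and counted once 29, 23.5 and 24 bp against 9, 9 and 10 bp. Rejoins to the first base of Jκ1 numbered 245, 201 and 227 in Ku70-/- libraries, and the bait end was trimmed in 220, 189 and 217 of them. In WT libraries they numbered 196, 345 and 341, and the bait end was trimmed in only 23, 56 and 8. A rejoin with no base lost or gained restores the uncut sequence, so it cannot be told from an uncut locus. None is in any of the 6 lists, which is no result. The rejoin shares leave such rejoins out, and how many there were in either genotype is not known here.

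2 rejoined breaks from Ku70-/- cells are shown with the bases that set them apart in capitals. In the first, found in 219 junctions of all 3 libraries, the bait had lost 13 bases and the prey 11 bases of Jκ1, with an overlap of 6 bp (capitals) that both sides share. It was the most copied of the Jκ region junctions with an overlap. In the second, found in 181 junctions of all 3 libraries, the bait had lost 40 bases, Jκ1 was whole, and 4 bases in capitals belonged to neither side. It was the most copied of the Jκ region junctions with an insertion.
Ku70-/- rejoin with overlap: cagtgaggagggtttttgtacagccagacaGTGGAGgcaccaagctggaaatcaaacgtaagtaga
Ku70-/- rejoin with insertion: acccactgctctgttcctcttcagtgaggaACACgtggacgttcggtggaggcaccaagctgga

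The intronic heptamer was a sharp target in WT cells and a blurred one in Ku70-/- cells. It was placed at the leading WT position, so a higher WT share in a narrow window was favoured by the choice. Within 2 bp of it, on the plus strand, lay 3.89, 2.03 and 1.36% of Ku70-/- junctions and 8.40, 12.1 and 9.43% of WT junctions. When the window was widened to 20 bp the groups overlapped, with 11.1, 7.81 and 3.80% against 8.41, 12.1 and 9.49%. Within 200 bp the preys fell on 44, 43 and 49 positions in Ku70-/- cells and on 6, 5 and 6 in WT cells. The leading position held 15.8, 22.3 and 13.4% of them in Ku70-/- cells against 98.9, 98.9 and 97.2% in WT cells. The commonest WT joint kept the bait whole and joined it to the intronic heptamer with 1 shared base, in capitals below, and made up 7078 of 7223 junctions there. The commonest Ku70-/- joint had lost 14 bait bases and the heptamer itself, and made up 220 of 2590 junctions within 20 bp. It was mostly of library 2, since its prey position held 58, 190 and 4 junctions, whereas in libraries 1 and 3 the leading position lay 2 bp into the heptamer, with 313 and 106 junctions.
WT joint to the intronic heptamer: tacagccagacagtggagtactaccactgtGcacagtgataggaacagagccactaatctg
Ku70-/- joint to the intronic heptamer: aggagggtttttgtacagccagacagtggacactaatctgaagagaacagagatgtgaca

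Other features of the Jκ-Cκ stretch differed by which end was joined. The signal end of Jκ4, the fourth Jκ segment, was joined on the minus strand by 0.619, 0.145 and 0.570% of Ku70-/- junctions and by 0.890, 1.80 and 1.15% of WT junctions. The coding end of Jκ4 had the opposite order, with 0.758, 0.494 and 0.919% against 0.255, 0.108 and 0.190%. Neither pair of groups overlapped. No junction lay at either end of Jκ3 in any library, which allows up to 0.0219 to 0.0362% of a Ku70-/- library, and the highest value at either end of Jκ2 or Jκ5 was 0.386%. The Cκ exon, which encodes the constant region of the κ chain, held 1.60, 1.16 and 0.707% of Ku70-/- junctions and none of the WT junctions. The heptamer beyond Cκ, 26291 bp past the break, was joined on the minus strand by 0.466, 0.474 and 0.195% of WT junctions and by none in Ku70-/- cells within 20 bp. This heptamer was chosen as the leading WT position beyond Cκ, so that order was favoured and is given as a description. Within 200 bp of it, on either strand, the groups overlapped, with 0.517, 0.241 and 0.00919% in Ku70-/- cells against 0.466, 0.474 and 0.195%. From the end of Cκ to 100 kb past the break lay 3.50, 6.26 and 3.90% in Ku70-/- cells and 0.762, 0.514 and 0.394% in WT cells.

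Upstream of the break, between it and the last Vκ site, Ku70-/- libraries held 285, 378 and 303 junctions and WT libraries 1, 20 and 15. The Ku70-/- preys were on the minus strand, opposite to the bait, in 91.2, 95.0 and 97.7% of cases. Their median distance from the break was 1429, 2476 and 1313 bp. They came from 23, 21 and 23 distinct junctions, so few joints carry these counts.

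At Vκ sites, the signal end was joined almost always to a Vκ signal end in WT cells and often to a Vκ coding end in Ku70-/- cells. A prey that reads along the signal sequence of its site makes a signal joint (SE-SE), and a prey that reads the other way makes a hybrid joint (SE-CE). Signal joints were 68.3, 66.3 and 61.1% of Vκ site junctions in Ku70-/- libraries and 99.8, 99.6 and 99.3% in WT libraries. The groups did not overlap, and the difference of means was 34.3 percentage points. In Ku70-/- cells 1277, 670 and 1568 hybrid joints came from 159, 67 and 166 distinct junctions. In WT cells 42, 91 and 136 came from 5, 8 and 12. The commonest Ku70-/- hybrid joint, to the coding end of Igkv12-46, was found in 180 copies of 1 library only.

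Hybrid joining was not the same at the 2 orientations. At INV sites 23.4, 25.4 and 31.0% of Ku70-/- junctions were hybrid, and at DEL sites 66.7, 60.3 and 62.1%. The DEL values stood above the INV values in each of the 3 libraries. The WT values were 0.0551, 0.0501 and 0.0358% at INV sites and 1.04, 2.99 and 4.95% at DEL sites, each below every Ku70-/- value of the same orientation. As shares of all Vκ site junctions, the 4 kinds in Ku70-/- cells were 56.7% ± 5.29 INV signal, 20.4% ± 2.32 INV coding, 8.52% ± 1.84 DEL signal and 14.3% ± 1.53 DEL coding (SD, n = 3). In WT cells INV signal joints were 86.2% ± 0.659 and DEL signal joints 13.4% ± 0.858, with 0.0405% INV coding and 0.406% DEL coding.

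Strand and orientation followed from these kinds. Preys on the plus strand at Vκ sites, the orientation of an excised circle, were 25.3, 28.8 and 32.8% in Ku70-/- cells and 14.4, 12.9 and 12.9% in WT cells, without overlap. DEL sites took 19.2, 23.9 and 25.5% of Vκ site junctions in Ku70-/- cells against 14.5, 13.3 and 13.6% in WT cells. Among signal joints alone the groups overlapped, with 9.36, 14.3 and 15.9% at DEL sites against 14.4, 12.9 and 13.0%. With each distinct junction counted once the DEL share overlapped too, at 19.4, 26.0 and 24.0% against 22.9, 24.9 and 23.0% (exact permutation p = 0.9). Counting once folds identical untrimmed joints to a site together, so this overlap does not show that DEL usage was alike. Among hybrid joints DEL sites took 40.4, 42.7 and 40.7% in Ku70-/- cells against 76.2, 90.1 and 95.6% of the few in WT cells.

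**Figure D3:**
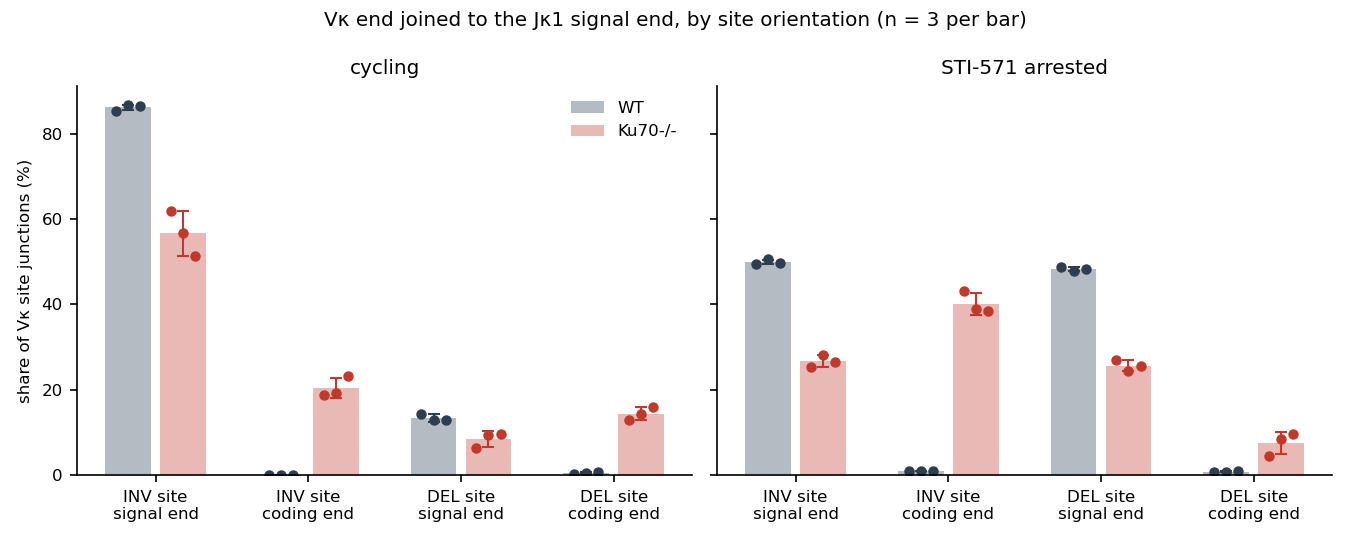
Share of Vκ site junctions (percent) by orientation of the site and by the Vκ end joined to the Jκ1 signal end, for cycling libraries on the left and STI-571 arrested libraries on the right, with a point per library, bars at the mean and error bars at 1 SD (n = 3 per bar). In cycling WT cells INV signal joints stand at 86.2% and DEL signal joints at 13.4%, against 49.9 and 48.3% in arrested WT cells, and joints to coding ends are visible in Ku70-/- cells in both panels.

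The genotype difference was set beside that of arrested cells, with 3 Ku70-/- and 3 WT libraries treated with STI-571 and DMSO. By copies, in arrested cells DEL sites took 33.1% of Ku70-/- and 49.1% of WT Vκ site junctions, a difference of -15.9 percentage points, whereas in cycling cells it was 9.09. These differences were 25.0 percentage points apart (exact permutation of genotype within treatment, p = 0.005, the smallest it can give, adjusted p = 0.025 over 5 such tests). Without the arrested Ku70-/- library that the study's table of libraries leaves out they were 24.2 apart (exact permutation p = 0.005). With each distinct junction counted once the differences were -0.447 in cycling and -10.5 in arrested cells, of the same sign and 10.0 apart (exact permutation p = 0.06, adjusted p = 0.1). The share at Vκ sites fell short of WT by 55.1 percentage points in cycling cells and by 18.0 in arrested cells. The gap between these was -37.2 (exact permutation p = 0.12). For signal joints, direct joints and junctions near the break, p was 0.595, 0.775 and 0.865 in the same exact permutation test. This permutation assumes no genotype difference in either treatment, so its p does not test the gap alone. Groups that stand apart in opposite directions give its smallest p by construction, as at DEL sites by copies. Groups apart in the same direction cannot reach it, so the larger p do not show that these differences were alike. Hybrid joints had the reverse order by orientation in arrested Ku70-/- cells, with 60.1% ± 2.57 of junctions at INV sites and 22.4% ± 6.97 at DEL sites (SD, n = 3), a change that was not tested.

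The structure of the joint separated the genotypes clearly. Direct joints, with neither overlap nor insertion between bait and prey on the read, were 49.6, 61.4 and 52.0% of Vκ site junctions in Ku70-/- cells and 93.7, 95.1 and 92.2% in WT cells. Microhomology over 1 bp (MH>1), where bait and prey alignments share at least 2 bases, was 31.7, 22.5 and 31.0% in Ku70-/- cells and 0.0659, 0.280 and 0.733% in WT cells. An overlap of a single base was 14.3, 13.8 and 12.7% against 5.00, 3.50 and 5.59%. Overlaps had a median of 3 bp over distinct junctions in each Ku70-/- library and reached 13 bp. The commonest overlap, AC, was found in 41 distinct junctions of Ku70-/- cells, followed by CA in 20, GA in 18 and AGTA in 12.

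Insertions went opposite ways by copies and by distinct junctions. By copies they were 4.41, 2.32 and 4.22% of Vκ site junctions in Ku70-/- cells and 1.23, 1.08 and 1.43% in WT cells. Counted once they were 10.7, 5.65 and 10.2% against 53.9, 46.6 and 44.1%. In WT cells the 151, 129 and 119 distinct insertions were held by only 261, 224 and 278 junctions, so most WT insertions were present in 1 or few copies. Direct joints, counted once, overlapped between groups at 38.6, 43.5 and 44.1% against 43.9, 48.0 and 48.1% (exact permutation p = 0.2). Untrimmed direct joints to 1 site are identical by construction, so counting once folds them together, in WT library 1 from 19904 to 123. The overlap therefore does not show that direct joints were equally common, and the distinct share of insertions is raised in the same way. MH>1 stayed apart when counted once, at 34.0, 34.5 and 31.2% against 1.07, 2.89 and 5.93%.

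Of the shares tested, that of junctions with an untrimmed bait differed most in percentage points. The bait reached the Jκ1 break untrimmed in 9.05, 13.2 and 7.43% of Vκ site junctions of Ku70-/- cells and in 99.2, 99.2 and 99.0% of WT cells. Counted once these shares were 7.04, 9.60 and 5.66% against 68.9, 69.3 and 72.2%, and the difference of means was -62.7 in place of -89.3 percentage points. The values that follow are by copies. Both ends were trimmed in 84.6, 79.5 and 87.0% of Ku70-/- junctions against 0.151, 0.106 and 0.222% of WT junctions. Neither end was trimmed in 5.58, 7.30 and 4.82% against 97.7, 97.8 and 97.6%. The total loss had a median of 17, 18 and 22 bp and a 90th percentile of 66, 54 and 63 bp in Ku70-/- cells, and both were 0 bp in WT cells. The median loss was 8, 7 and 11 bp from the bait end and 9, 9 and 11 bp from the Vκ end. The longest bait loss among all junctions of a Ku70-/- list was 48, 47 and 46 bp, and how long a loss the bait primer lets the assay read is not known here. Vκ ends had lost more than that in 7.24, 1.71 and 8.42% of Vκ site junctions, so the 2 ends cannot be compared at long losses. The loss from the bait with the highest mean share in Ku70-/- cells was 2 bp, in 11.6, 9.86 and 6.95% of Vκ site junctions. It led in library 1 only, since losses of 6 bp (13.2%) and 8 bp (11.8%) stood above it in library 2 and a loss of 4 bp (9.81%) in library 3.

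Distance of the prey from the Vκ break gave the same picture. Of junctions within 100 bp of a site, 63.5, 55.9 and 50.6% lay within 10 bp in Ku70-/- cells and 99.9% or more in each WT library. Ku70-/- signal joints lay within 10 bp in 72.3, 58.7 and 67.2% of cases and hybrid joints in 44.5, 50.3 and 24.4%. The hybrid share was the lower in each library.

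**Figure D4:**
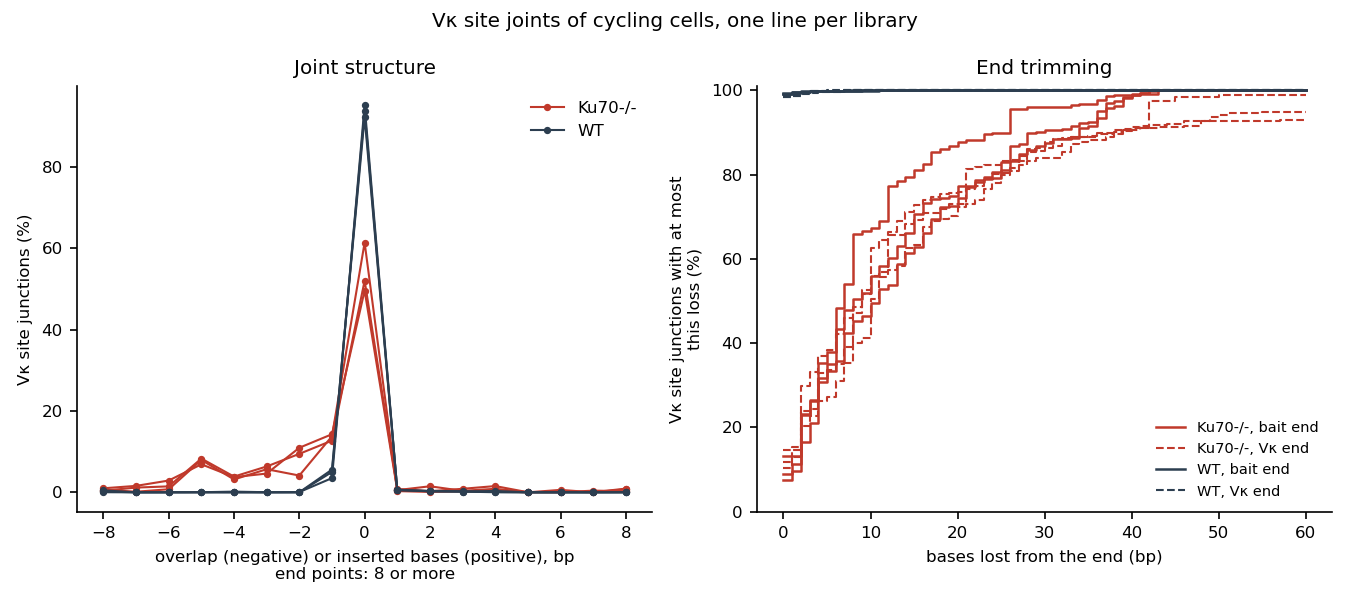
Left, percent of Vκ site junctions by length of the overlap (negative) or insertion (positive) between bait and prey in bp, with the end points holding 8 bp or more; right, cumulative percent of Vκ site junctions against the bases lost from the bait end (solid) and the Vκ end (dashed) in bp, one line per library and end in both panels. WT lines stand at 92.2 to 95.1% direct joints and at nearly 100% with no loss, whereas Ku70-/- lines, drawn by copies, spread over overlaps and rise slowly over some 40 bp of loss.

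The 2 joints below show the change at Igkv6-32, whose germline sequence is given above. In WT cells 5561 of 5619 Igkv6-32 signal joints (99.0%) were of a single form, with both heptamers whole and joined head to head. The commonest form in Ku70-/- cells, found in all 3 libraries, made up 212 of 635 signal joints (33.4%) and had lost 4 bases from the bait and 10 from the Vκ end, so that only part of the bait heptamer remained.
WT signal joint to Igkv6-32: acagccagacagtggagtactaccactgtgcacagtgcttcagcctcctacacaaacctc
Ku70-/- signal joint to Igkv6-32: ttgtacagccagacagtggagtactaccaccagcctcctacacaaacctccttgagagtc

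Junctions between the Vκ sites placed from WT libraries numbered 1023, 934 and 751 in Ku70-/- cells and 21, 41 and 0 in WT cells. The shares turned round with the smaller set placed from Ku70-/- libraries, which counts junctions at the sites it lacks as between sites. The Ku70-/- junctions came from 104, 72 and 88 distinct junctions. Their median distance from the nearest site was 1192, 1683 and 1297 bp, and 97.7, 99.8 and 88.4% lay within 5 kb of one. The prey read away from the nearest break in 90.6, 92.2 and 73.2% of cases, the orientation of an end that had lost all the bases between. These joints differed in structure from those at the sites, with direct joints at 10.2, 1.5 and 3.06%, MH>1 at 56.7, 45.5 and 58.3% and insertions at 25.0, 25.4 and 24.1%. The bait end had lost a median of 19, 19 and 22 bp. Igkv3-1, the Vκ site nearest to Jκ1, had the largest sum beside it, with 30, 212 and 19 junctions from 14 distinct ones, most of them in library 2. Igkv4-59 led in library 1 with 82 junctions and Igkv4-56 in library 3 with 76, and the values of Igkv4-56 were 51, 109 and 76 from 9 distinct junctions.

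Outside chromosome 6, Ku70-/- libraries held 85, 91 and 39 junctions and WT libraries 3, 0 and 2. The Ku70-/- junctions were 21, 34 and 8 distinct ones on 9, 15 and 6 chromosomes. None lay in Igh, Igl, Tcra/Tcrd, Tcrg or Tcrb, the other antigen receptor loci that RAG can cut, where 1 WT junction lay in Tcra/Tcrd. A count of 0 allows up to 0.0219, 0.0362 and 0.0276% of the Ku70-/- libraries there. The densest windows of 100 kb held 4 distinct junctions each, at chr1:74900001-75000000 in Ku70-/- library 2 only and at chr6:99100001-99200000 in Ku70-/- library 1 only. No window was shared by all 3 libraries, and the 5 leading windows held from 2 to 4 distinct junctions.

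Vκ usage was more uneven between Ku70-/- libraries than between WT libraries. Ku70-/- libraries had a junction at 80, 63 and 77 of the 140 sites and WT libraries at 93, 103 and 97. Across the 140 sites, Pearson's r between libraries was 0.90 to 0.95 within WT, 0.51 to 0.80 within Ku70-/- and 0.48 to 0.84 between genotypes, values that describe sites of 1 locus at unequal depth. Igkv6-32 had the highest mean share in both genotypes, with 7.59, 5.79 and 10.4% of Vκ site junctions in Ku70-/- cells and 7.91, 11.8 and 7.75% in WT cells. In Ku70-/- library 2 it stood behind Igkv12-46 (9.66%), Igkv4-72 (7.30%), Igkv4-61 (6.84%) and an unannotated site at position 69060897 (6.24%). Igkv8-27 and Igkv12-44 were also among the 5 leading sites of both. Igkv4-61 and Igkv12-46 completed the list in Ku70-/- cells, and Igkv4-50 and an INV site with no annotated gene at position 69631399 in WT cells. The place of Igkv12-46 rested on library 2, since its shares in Ku70-/- cells were 2.60, 9.66 and 0.894%. The 5 leading sites of a library held 26.3, 35.8 and 30.1% against 26.8, 29.2 and 26.1%, which overlapped (exact permutation p = 0.3, adjusted p = 0.3).

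By copies, Ku70-/- usage was higher than WT usage at the far end of the locus. Sites over 2400 kb from Jκ1 took 12.3, 11.9 and 16.8% of Vκ site junctions in Ku70-/- cells and 5.69, 5.12 and 6.78% in WT cells. Counted once these shares overlapped, at 11.7, 12.4 and 12.4% against 12.9, 10.1 and 10.4%. Sites within 800 kb took 21.5, 29.0 and 31.5% against 33.5, 36.7 and 31.9%, and counted once 22.8, 26.0 and 26.9% against 28.2, 32.5 and 27.8%. By copies the groups did not overlap in either bin but overlapped in the bins from 800 to 1600 kb and from 1600 to 2400 kb. Without the 5 consecutive sites Igkv3-7 to Igkv3-2, the difference of means in the near bin moved from -6.69 to -5.53 percentage points. The groups then overlapped, as Ku70-/- library 3 (31.5%) stood above WT library 3 (30.7%). With all sites kept but Ku70-/- library 1 left out, the difference was -3.78. Vκ families are named by sequence relatedness, and by copies the groups did not overlap in 4 of the 19. This is no larger a share than at single sites, 25 of the 88 tested below (28.4%), so the families are given as a description. Igkv11 and Igkv13, with 1 site each, were 2 of the 4. Igkv8 was lower in each Ku70-/- library (9.62% ± 2.95 against 14.9% ± 0.523, SD, n = 3) and Igkv1 higher (6.16% ± 0.519 against 3.72% ± 1.23). Igkv4, the family with most junctions, overlapped at 30.3% ± 6.68 against 30.9% ± 2.82.

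Single sites were compared with limma on log2 junctions per 1000 Vκ site junctions, for the 88 sites whose mean over the 6 libraries was 10 junctions or more. At an adjusted p of 0.05, 12 sites were called (13.6% of those tested), 1 higher in Ku70-/- cells (1.14%) and 11 lower (12.5%). At 25 sites (28.4%) the libraries of the 2 groups did not overlap. The median log2 difference over all 88 was -0.73. The minimum favoured WT cells, which held 61325 Vκ site junctions against 10046. Of the 88 sites, 28 had a mean of 10 junctions or more in WT cells but not in Ku70-/- cells, and 1 the other way round, so the balance of lower to higher sites and the median are not results. With each distinct junction counted once only 2 sites reached the minimum and neither was called, so the calls could not be checked without copies.

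The site that was higher was Igkv11-125, a DEL segment 2809 kb from Jκ1, at chr6:67864035-67864074, plus strand. It took 2.53, 1.16 and 4.82% of Vκ site junctions in Ku70-/- cells and 0.155, 0.0724 and 0.320% in WT cells. Every Ku70-/- value lay above every WT value, and the log2 difference was 3.89 ± 0.85 (SE; limma, adjusted p = 0.0246). The 102, 23 and 194 Ku70-/- junctions came from 4, 3 and 4 distinct ones. Leaving out any library but Ku70-/- library 2 raised its adjusted p to between 0.0608 and 0.103 in limma.

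The largest falls in the fit were at Igkv3-7, Igkv3-4, Igkv12-38, an unannotated DEL site at position 70613890 and Igkv4-79. These sites passed the minimum through their WT junctions alone, so that a fall was favoured by the choice of sites, and their values are given as a description without a p. Igkv3-7, a DEL segment 115 kb from Jκ1 shown at chr6:70558019-70558058, plus strand, had no junction in any Ku70-/- library and 202, 108 and 194 in WT libraries. Against a limit of 3 counts over the 10046 Ku70-/- Vκ site junctions, its usage was at least 27.6-fold lower, with each copy taken as an independent joint. On the same basis Igkv3-4 was at least 12.6-fold lower, the site at 70613890 at least 11.4-fold and Igkv12-38 at least 8.76-fold. The 10046 junctions rest on 1031 distinct ones, so these limits are too high where copies came from PCR and are no firm bounds. The limit of the site at 70613890 was carried by WT library 2, without which it was 4.84-fold. Without Ku70-/- library 1 or 3 fewer junctions stand behind the limit, and those of Igkv3-7, Igkv3-4, the site at 70613890 and Igkv12-38 became 16.5, 7.56, 6.83 and 5.24-fold at their lowest. Igkv4-79 had 4, 0 and 0 junctions against 217, 98 and 70. Its call in limma was favoured by the choice of sites and is no result, and it was lost when any library but Ku70-/- library 1 was left out.

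Close to Jκ1 lay a run of sites without Ku70-/- junctions, next to one that had them. The 5 consecutive DEL sites from Igkv3-7 to Igkv3-2 had no Ku70-/- junction within 200 bp, and ends trimmed farther are not counted to a site. In WT cells these sites had 1065 junctions, 1.65 to 1.83% of each WT library's Vκ site junctions. Among them Igkv3-2 was at least 6.47-fold lower with each copy taken as independent, again a site that passed through WT junctions alone. This was carried by WT library 3, without which the limit was 2.96-fold and the site fell under the minimum of 10 junctions and was not tested, and without Ku70-/- library 1 or 3 it was 3.87 or 3.88-fold. In the same stretch Igkv3-3 had 0, 1 and 0 WT junctions and was not tested. Igkv3-1, the next and last site, had junctions in each Ku70-/- library, 8, 21 and 29, and 0, 47 and 0 in WT libraries (limma, adjusted p = 0.142). They were copies of 1 distinct junction in each Ku70-/- library, and the 47 of WT library 2 were also of 1, so few joints carry this contrast. The windows of Igkv3-4 and Igkv3-3 below and that of the site at 70613890 are identical over their 40 bases, so reads ending in them could be divided between the 3, and their separate values and limits are uncertain. The run ends at Igkv3-1 (chr6:70654160-70654199, plus strand), whose sequence differs from its neighbours before the heptamer.
Igkv11-125: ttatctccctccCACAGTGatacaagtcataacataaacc
Igkv3-7: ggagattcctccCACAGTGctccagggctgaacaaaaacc
Igkv3-4: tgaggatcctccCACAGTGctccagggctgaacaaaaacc
Igkv3-3: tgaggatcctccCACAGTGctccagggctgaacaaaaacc
Igkv3-2: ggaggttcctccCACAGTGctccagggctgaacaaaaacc
Igkv3-1: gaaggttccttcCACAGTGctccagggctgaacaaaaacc

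All of these windows carry the full CACAGTG heptamer, and those of the Igkv3 sites read alike after it.

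**Figure D5:**
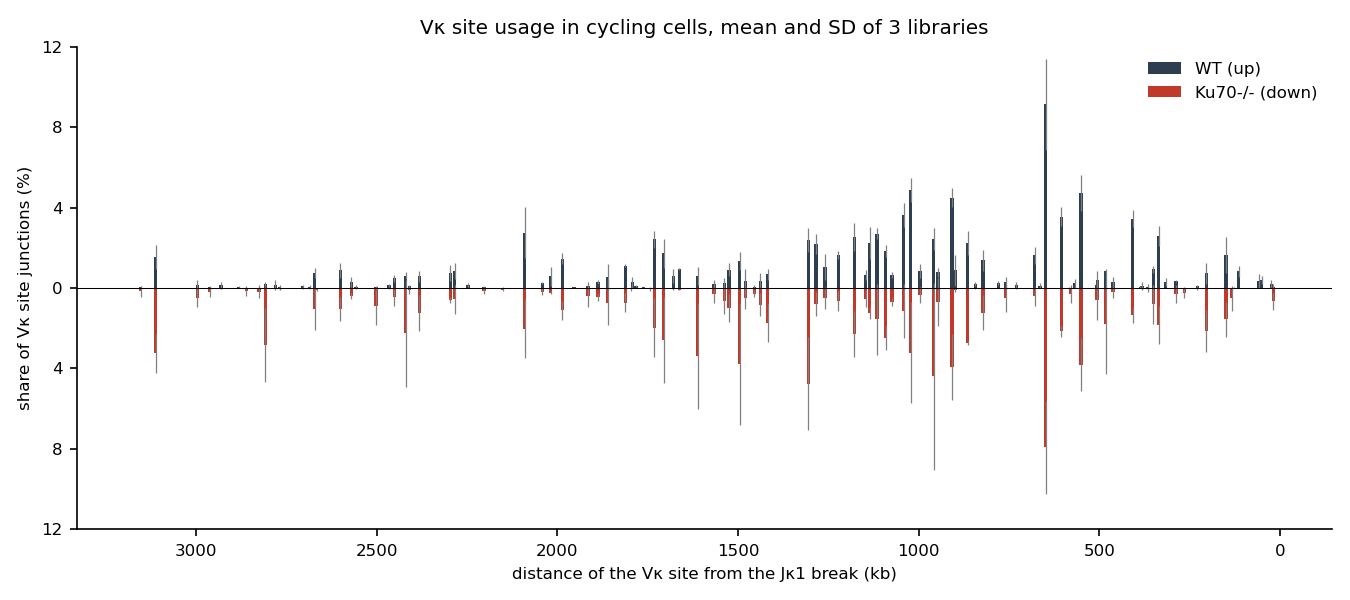
Mean share of Vκ site junctions (percent) at each of the 140 Vκ sites against distance from the Jκ1 break in kb, WT drawn upward and Ku70-/- downward, with grey lines at 1 SD (n = 3 libraries per genotype). Igkv6-32 at 649 kb is the tallest bar in both directions (9.14% in WT and 7.92% in Ku70-/- cells), Igkv11-125 at 2809 kb stands out downward, and the Ku70-/- error bars are the longer at many sites.

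Identical junctions recurred between libraries. Of Ku70-/- junctions, 52.6, 48.0 and 45.8% had a junction of the same form in another cycling Ku70-/- library and 64.8, 61.3 and 60.6% in an arrested one, against 4.27, 4.44 and 4.13% in a cycling WT library. Of WT junctions, 97.8, 97.1 and 96.7% recurred in another cycling WT library and 98.9, 99.1 and 98.3% in an arrested one. These shares are by copies. Counted once, 26.8, 31.3 and 27.2% of Ku70-/- junctions recurred in another cycling Ku70-/- library and 43.6, 46.5 and 45.4% in an arrested one. For WT junctions counted once the shares were 61.7, 60.8 and 60.6% in cycling and 78.3, 79.5 and 77.5% in arrested WT libraries. Untrimmed joints to 1 site are identical by construction, which is where most WT junctions fall. The largest single junction made up 1.42, 3.32 and 1.51% of the Ku70-/- libraries and 8.26, 11.9 and 9.18% of the WT libraries. Whether material shared between libraries has a part in these values was not tested.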

How the data were processed

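HTGTS-JoinT-seq libraries were analyzed as deposited lists, 1 junction per line with prey position and strand, bait end and read alignment coordinates, which are positions and not counts (unit: other). Before they deposited them, the authors demultiplexed and adapter-trimmed the reads, took each library to 500000 read pairs, mapped them to mm9 (Bowtie2 per the labels, version not given in the sources used here) with duplicates kept and added bait-region junctions. Counts, percentages and log2 values were computed here from these deposited lists (Python 3.11.15, pandas 2.3.3, scipy 1.17.1, R 4.3.3, limma 3.58.1), and no read was mapped again. Samples were grouped by the labels' treatment, description and genotype. The study's table of signal end libraries gives the cycling ones names that the labels give to coding end libraries. The labels were followed, and in the 6 lists used every bait alignment lay on the plus strand and 99.1% or more per list ended at or before the Jκ1 break, on its signal side.

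Vκ sites were positions with at least 30 signal end junctions, no higher position within 50 bp and CAC next, in arrested WT libraries. A site took the name of a Vκ gene on the same strand whose annotated end lay within 50 bp of the break. The Vκ region reached 1000 bp past the annotated Vκ genes on either side. Overlaps and insertions were classed within 20 bp, and receptor loci were padded by 100 kb. Library means were compared by exact permutation, two-sided, and site usage by limma with the value of 1 junction added. The limma fit was first tested on simulated data. Named sites were the 5 largest rises and 5 largest falls past 0.05 without overlap, the 5 leading sites per genotype and named sites near Jκ1. Those near Jκ1 were taken from earlier results of these data. The lists, sites and tests were chosen with earlier results of these data known. Alternatives were each library left out, distinct junctions, other windows, site placements, denominators, joint classes, filters, pseudocount, trend and added libraries, with 1 more chosen after seeing the data, the 800 kb share without 5 sites.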

Additional observations from a re-analysis of the deposited data

Results flagged for a closer look

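The genotype difference in the share of Vκ site junctions at DEL sites went opposite ways with and without arrest by copies. It was 9.09 percentage points (Ku70-/- 22.9%, WT 13.8%) in cycling cells and -15.9 (33.1% against 49.1%) in arrested cells. The differences were 25.0 percentage points apart by exact permutation of genotype within treatment (p = 0.005, the smallest of 400 arrangements, adjusted p = 0.025). With each distinct junction counted once they had the same sign, -0.447 in cycling and -10.5 in arrested cells (exact permutation p = 0.06, adjusted p = 0.1). All 3 cycling Ku70-/- libraries lay above all 3 cycling WT libraries, by copies only. Of the 5 results compared between cycling and arrested cells in this way, it was the only one past the threshold by copies. Groups that stand apart in opposite directions give the smallest p by construction, and those apart in the same direction cannot reach it. The p therefore does not set the DEL share above the other results.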

How the results depend on the processing

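The 16 shares and totals that separated the genotypes kept their direction and their separation when any 1 library was left out. This was fixed in advance, since leaving out a library cannot bring groups that stood apart to overlap, and it adds no support. No paired analysis was possible because the labels number no replicates. With each distinct junction counted once, the log2 difference in total junctions became 1.41, the DEL share difference -0.447, the insertion difference -39.4 and the direct joint difference -4.63 percentage points, with overlap for the DEL and direct shares. Counting once folds identical untrimmed joints together, so these overlaps do not show that the genotypes were alike. The difference in the 5 leading sites became 4.76 without overlap, and ranged from 0.838 to 5.63 with each library left out, the highest and the only one without overlap being without Ku70-/- library 1. Between cycling and arrested cells, the differences of distinct junctions were -41.3 at Vκ sites (exact permutation p = 0.045), 10.0 for the DEL share (p = 0.06), -3.90 for signal joints and -15.8 for direct joints (p = 0.025), none with an adjusted p under 0.1. With sites placed from arrested Ku70-/- libraries (54 sites, 32 shared), the share between sites differed by -25.3, its direction turned round, that at Vκ sites by -21.4 in place of -55.1 and the DEL share by 15.1 in place of 9.09. Junctions at the sites that this smaller set lacks count as between sites there. The difference within 10 bp of the Vκ break, -43.3, was -66.7 within 5 bp and -25.6 within 20 bp. For signal joints only, the insertion difference was 1.90 with overlap. The 800 kb difference without 5 sites, chosen after seeing the data, was -5.53 with overlap.

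In limma, the number of called sites ranged from 3 to 14 with each library left out, with 5 (4 shared) without WT library 2 and 3 without WT library 3. It was 7 with a minimum of 30 junctions, 7 with 5 junctions added, 6 with the other site placement and 0 with distinct junctions. Igkv3-2 lost its call without Ku70-/- library 3 or WT library 2, and the site at position 70613890 without WT library 3. Without WT library 3, Igkv3-2 was not tested. With 5 junctions added Igkv3-2 and the site at 70613890 lost their calls in limma, and with an intensity trend Igkv4-79 did. These sites passed the minimum through WT junctions alone, so their calls are not results, kept or lost. Igkv3-1 gained a call without WT library 2 (limma, adjusted p = 0.0281) and with arrested libraries in the fit (0.0252). With each library left out, the log2 difference of Igkv12-44 ranged from -0.55 to 0.11 and that of Igkv12-46 from -0.66 to 1.05, both changing sign without Ku70-/- library 2, and with distinct junctions those of Igkv6-32 and Igkv8-27 were 0.36 and 0.28. The cause of these changes was not tested.

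Copies limit precision here, since the Ku70-/- Vκ site junctions rest on 1031 distinct ones and the WT ones on 827. The longest bait loss in any of the 6 lists was 48 bp.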
